A study of Mus musculus with 11 samples.

Results

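The Ly6 genes described here are Ly6a, Ly6c1, Ly6c2, Ly6e and Ly6i, 5 of the 34745 genes in the deposited expression table. These genes were taken by symbol and not by a rule on their values, but with earlier results of these data known. They were followed through 11 RNA sequencing libraries of cultured adult microglia, the resident macrophages of the brain. Every group shared the same source, C57BL/6 mice of 6 to 8 weeks whose cerebrum was dissociated, and the same culture of 10 to 14 days in M-CSF (10 ng/ml) and TGF-beta1 (5 ng/ml). The groups were Pam3CSK4+IFN-gamma (the combined group, n = 3), IFN-gamma (n = 3), Pam3CSK4 (n = 2) and Control (n = 3, untreated). Pam3CSK4, a bacterial lipopeptide mimic sensed by Toll-like receptor 2, was used at 100 ng/ml and IFN-gamma at 20 ng/ml, each over 24 h, and in the combined group IFN-gamma followed Pam3CSK4. The labels do not say whether Pam3CSK4 was washed out, when the other cultures were harvested relative to the combined ones, or whether the replicates were separate cultures or animals. In the treatment label of combined replicates 2 and 3 the agonist's name ends in a different digit, while their titles read Pam3CSK4, and they were kept in the group.

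Ly6 proteins are small cell surface proteins held in the outer membrane by a glycosylphosphatidylinositol (GPI) anchor, and several of their genes are induced by interferons in leukocytes. Ly6a encodes Sca-1, the stem cell antigen used to sort mouse blood progenitors and also carried by activated lymphocytes and endothelium. Ly6c1 and Ly6c2 encode the closely related proteins that antibodies detect together as Ly6C. That antigen marks inflammatory monocytes and brain endothelium, and resting microglia are usually sorted as cells with little of it. Ly6e is broadly expressed and limits the entry of coronaviruses, and Ly6i encodes a close relative of Ly6C found on myeloid cells.

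All 5 genes lie within 157 kb of mouse chromosome 15 (mm10). Ly6e (ENSMUSG00000022587) spans chr15:74955051-74959905 on the plus strand, followed on the minus strand by Ly6i (ENSMUSG00000022586, chr15:74979534-74983430), Ly6a (ENSMUSG00000075602, chr15:74994877-74998031), Ly6c1 (ENSMUSG00000079018, chr15:75044018-75048830) and Ly6c2 (ENSMUSG00000022584, chr15:75108158-75111970). No other gene of GENCODE M21 overlaps any of them. RefSeq promoter windows (GRCm38.p6; 250 bases before to 50 after a start) matched 2 of the 5 genes, Ly6c1 and Ly6c2, and are shown because these genes share the most transcript sequence. Both are on the minus strand, at chr15:75048788-75049087 and chr15:75111922-75112221, and the capitals mark runs of at least 12 bases found in both windows:
Ly6c1: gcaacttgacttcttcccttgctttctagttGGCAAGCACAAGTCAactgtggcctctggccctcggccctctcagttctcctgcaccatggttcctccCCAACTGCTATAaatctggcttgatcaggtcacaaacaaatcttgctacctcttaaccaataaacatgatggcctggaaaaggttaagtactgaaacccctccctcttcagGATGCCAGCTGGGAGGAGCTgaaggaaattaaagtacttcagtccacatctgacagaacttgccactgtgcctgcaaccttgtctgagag
Ly6c2: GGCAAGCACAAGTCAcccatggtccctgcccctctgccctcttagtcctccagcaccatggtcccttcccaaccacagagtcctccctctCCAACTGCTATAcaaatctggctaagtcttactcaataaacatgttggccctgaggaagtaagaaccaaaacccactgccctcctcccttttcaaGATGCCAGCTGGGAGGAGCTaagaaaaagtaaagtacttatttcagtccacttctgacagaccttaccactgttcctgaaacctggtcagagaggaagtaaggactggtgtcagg
In a global alignment the windows were identical at 208 of 266 aligned bases (78.2%), with 68 gap positions, and the longest shared run was 20 bases. Neither window, nor a second annotated window of each gene, held the interferon-gamma activated site TTCNNNGAA, the interferon-stimulated response element core (GAAA, any 2 bases, GAAA) or the kappaB consensus on either strand. Among all 32851 windows of the table, 8.30%, 3.44% and 8.46% held these 3 motifs.

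The genes share transcript sequence, so reads could be split between them, and the handling of shared reads is not given in the sources used here. Of the 50-base stretches in Ly6c1 transcripts of GENCODE M21, 21.5% also occurred in Ly6c2 and 11.1% in Ly6a. The share of 50-base stretches found in no other gene was 67.2% for Ly6c1, 81.0% for Ly6a, 85.5% for Ly6c2, 95.2% for Ly6i and 100% for Ly6e. Read length is not given in the sources used here, and with 100-base stretches the Ly6c1 share found in no other gene was 89.9%.

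Levels are given as FPKM, fragments per kilobase of transcript scaled to sequencing depth, which allows levels of different genes to be set side by side. Changes were tested on the deposited counts with the quasi-likelihood test of edgeR in a fit of all 11 libraries, with Benjamini-Hochberg adjustment over 10938 genes that had at least 1 FPKM in at least 2 libraries, and a threshold of 0.05. Of the 5 Ly6 genes 4 passed that filter: Ly6e and Ly6i with at least 1 FPKM in 11 libraries, Ly6a in 9 and Ly6c2 in the 5 libraries given Pam3CSK4, through which alone it entered the test. Ly6c1 stayed below 1 FPKM in every library. Library totals ranged from 15033702 to 20321017 counts. All 15 microglial markers examined passed the filter, with a summed level of 2211 to 7866 FPKM per library. Replicate 3 of the combined group, replicate 1 of IFN-gamma and replicate 3 of Control also held transcripts of mural cells and fibroblasts (summed marker level 55.8 to 2262 FPKM, against 1.16 to 3.90 FPKM in the other 8 libraries). Results of the 5 Ly6 genes that change without these libraries are given both ways. Tests of the other genes named below used all 11 libraries only, and whether they change was not examined.

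Each stimulus moved the tested Ly6 genes, Pam3CSK4 in both directions and IFN-gamma upward only. After Pam3CSK4 alone, Ly6c2 and Ly6i rose and Ly6a and Ly6e fell relative to Control. After IFN-gamma alone, Ly6a, Ly6c2, Ly6e and Ly6i all rose. Of all tested genes, 41.4% were called in the first comparison (20.0% higher, 21.4% lower) and 41.6% in the second (20.0% higher), so that a call by itself was common. The combined group was above Control for Ly6a, Ly6c2 and Ly6i, where 47.6% of tested genes were called (23.4% higher). It was below IFN-gamma alone for Ly6a and Ly6e and above it for Ly6c2, where 34.2% were called (17.0% higher, 17.2% lower), and above Pam3CSK4 alone for Ly6a and Ly6i, where 9.10% were called (6.06% higher, 3.04% lower). The comparisons with Control share the same 3 Control libraries. Where groups are said below not to overlap, this describes the values only, and the share of all tested genes without overlap was not counted. In these bulk RNA samples, fewer cells expressing a gene and less RNA per cell cannot be told apart.

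**Figure D1:**
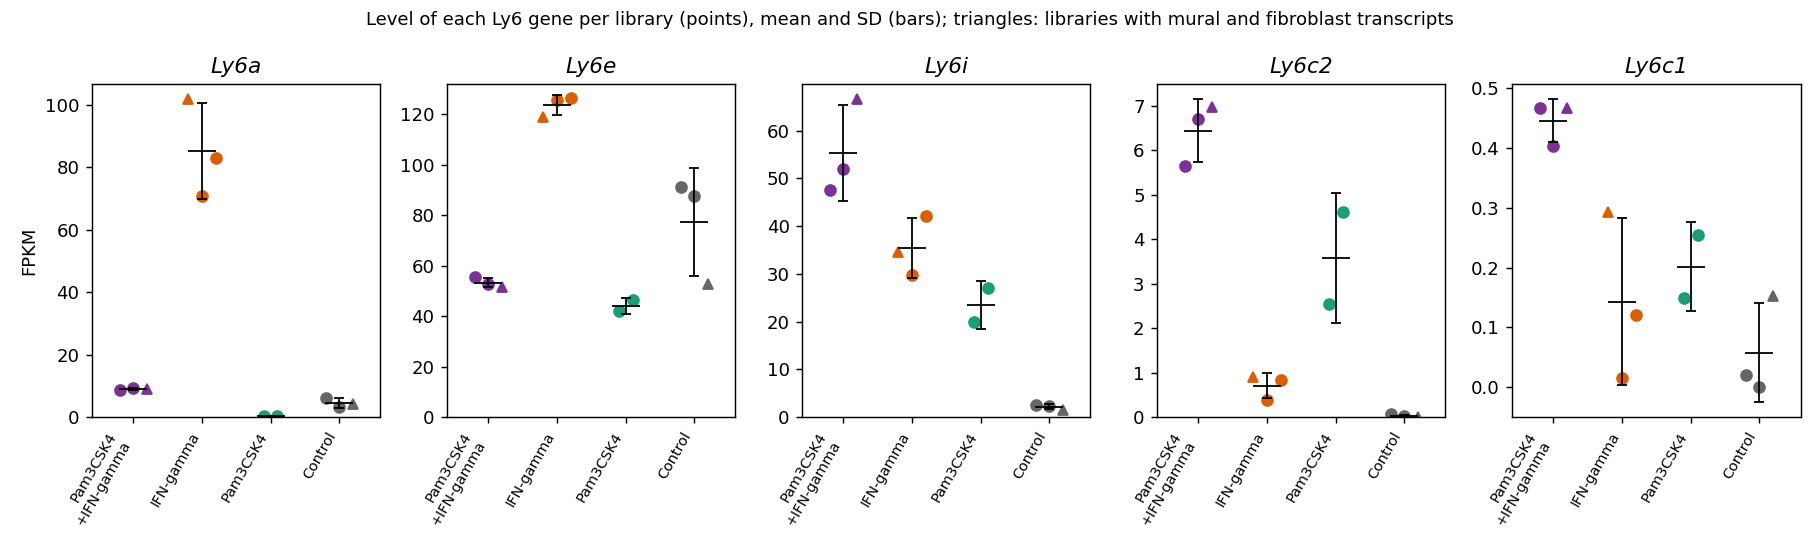
FPKM of each Ly6 gene (vertical axes, linear, a separate scale per gene) in the 4 groups, with a point per library and the mean and SD as bars. Ly6a reached 71.0 to 102 FPKM with IFN-gamma alone and 8.73 to 9.28 FPKM in the combined group, whereas Ly6i and Ly6c2 were highest in the combined group.

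Ly6a, the Sca-1 gene, rose with IFN-gamma and fell with Pam3CSK4, and was far lower with both stimuli than with IFN-gamma alone. It stood at 8.73, 9.28 and 9.05 FPKM in the combined libraries, at 102, 71.0 and 83.0 FPKM with IFN-gamma, at 0.428 and 0.373 FPKM with Pam3CSK4, and at 6.13, 3.24 and 4.32 FPKM in Control. The order of the groups was IFN-gamma, combined, Control and Pam3CSK4, and no library of one group overlapped with another group. IFN-gamma raised Ly6a by 4.32 ± 0.24 on the log2 scale against Control (SE; edgeR adjusted p = 1.59e-06), a 20.0-fold rise. Pam3CSK4 lowered it by 11.5-fold against Control (log2 change -3.52 ± 0.30, edgeR adjusted p = 2.36e-05), leaving 27 and 20 counts in the Pam3CSK4 libraries. Ly6a thus moved in opposite directions under the 2 stimuli.

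With both stimuli, Ly6a was 9.48-fold lower than with IFN-gamma alone (log2 change -3.25 ± 0.23, edgeR adjusted p = 8.88e-06). It was 24.1-fold higher than with Pam3CSK4 alone (4.59 ± 0.31, edgeR adjusted p = 2.05e-05). Against Control it was 2.1-fold higher (1.07 ± 0.22, edgeR adjusted p = 0.00274). Each of these 5 calls was kept without any single library and without the 3 libraries that held mural and fibroblast transcripts. Endothelium also carries Ly6a, and the summed level of 12 endothelial markers was 3.49 to 6.13 FPKM in the combined libraries, 24.3 to 30.3 FPKM with IFN-gamma, 3.50 to 4.31 FPKM with Pam3CSK4 and 18.5 to 40.2 FPKM in Control. That sum, like Ly6a, was lower in the combined libraries than with IFN-gamma alone and lower with Pam3CSK4 than in Control, and its part in the Ly6a values was not tested. Most of it was Flt1, a VEGF receptor gene, with IFN-gamma (mean 23.8 FPKM) and in Control (mean 14.4 FPKM). Of the 12 markers, Cldn5, Erg and Slco1a4 had no counts in any library.

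Ly6e was the most abundant of the 5 genes in every library except combined replicate 3. It moved the same way as Ly6a with each single stimulus, over a smaller range. It stood at 55.4, 52.7 and 51.8 FPKM in the combined libraries, at 119, 126 and 126 FPKM with IFN-gamma, at 42.0 and 46.4 FPKM with Pam3CSK4, and at 91.4, 87.8 and 52.8 FPKM in Control. The low Control value was that of replicate 3, the library with the most mural and fibroblast transcripts (2262 FPKM summed), and it fell within the combined group's range. The firmest difference was between the combined group and IFN-gamma alone, where Ly6e was 2.34-fold lower (log2 change -1.22 ± 0.22, edgeR adjusted p = 0.00219), and between -1.27 and -1.18 with any single library left out.

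The Ly6e comparisons with Control depended on single libraries. IFN-gamma raised Ly6e by 0.76 ± 0.22 (edgeR adjusted p = 0.0190), a call lost without IFN-gamma replicate 3 (adjusted p = 0.0533) and when only these groups were fitted (adjusted p = 0.0684). Pam3CSK4 lowered it (log2 change -0.84 ± 0.25, edgeR adjusted p = 0.0217). That call was lost without Control replicate 1 or 2 (adjusted p = 0.0608 and 0.0607), without Pam3CSK4 replicate 1 or 2 (0.119 and 0.0778), without the filter on low values (0.0556) and when only these groups were fitted (0.128). The direction held in these alternatives, and without Control replicate 3 the changes were 0.51 with IFN-gamma and -1.09 with Pam3CSK4 (edgeR adjusted p = 0.000523 and 8.83e-06).

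The combined group's Ly6e level did not pass against Control (log2 change -0.47 ± 0.21, edgeR adjusted p = 0.103) but passed without Control replicate 3 (-0.71, adjusted p = 4.25e-05) and without the 3 libraries that held mural and fibroblast transcripts (-0.68, adjusted p = 0.000156). Against Pam3CSK4 it was 0.38 ± 0.24 higher and did not pass (edgeR adjusted p = 0.422). It passed without Control replicate 3 (0.38, adjusted p = 0.00791), without the 3 libraries (0.41, adjusted p = 0.00841) and when only these groups were fitted (0.38, adjusted p = 0.0146). The level of Ly6e thus ran from IFN-gamma through Control and the combined group to Pam3CSK4, and the neighbours among the last 3 were separated beyond their spread only in some of these fits.

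Ly6i, the Ly6C-like gene, rose with each stimulus and was highest with both. It stood at 47.5, 52.0 and 66.6 FPKM in the combined libraries, at 34.5, 29.8 and 42.2 FPKM with IFN-gamma, at 19.9 and 27.1 FPKM with Pam3CSK4, and at 2.57, 2.36 and 1.58 FPKM in Control. The 4 groups did not overlap, in the order combined, IFN-gamma, Pam3CSK4 and Control. IFN-gamma raised Ly6i by 17.5-fold against Control (log2 change 4.13 ± 0.27, edgeR adjusted p = 4.81e-06). Pam3CSK4 raised it by 10.6-fold against Control (3.41 ± 0.28, edgeR adjusted p = 1.92e-05), and both stimuli together by 27.0-fold (4.75 ± 0.28, edgeR adjusted p = 1.49e-06). These 3 rises were kept in every alternative fit.

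The further step from one stimulus to both depended on the fit for Ly6i. Against IFN-gamma alone the combined group was 0.63 ± 0.23 higher on the log2 scale and did not pass (edgeR adjusted p = 0.0655). It passed without Control replicate 3 (0.63, adjusted p = 0.0174), without IFN-gamma replicate 3 (0.80, adjusted p = 0.0474), when only these groups were fitted (0.64, adjusted p = 0.0255) and with DESeq2 (0.63, adjusted p = 0.0184). It did not pass without the 3 libraries that held mural and fibroblast transcripts (0.45, edgeR adjusted p = 0.104), but passed without them and without the low-value filter, an alternative added after seeing the data (0.45, edgeR adjusted p = 0.00730). Against Pam3CSK4 alone Ly6i was 2.53-fold higher (1.34 ± 0.27, edgeR adjusted p = 0.0147). This call was lost without Pam3CSK4 replicate 1 (1.13, adjusted p = 0.144) or replicate 2 (1.59, adjusted p = 0.0538). The difference between IFN-gamma and Pam3CSK4 was not tested.

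Ly6c2, a Ly6C gene, was almost silent in Control, rose with each stimulus and was highest with both. It stood at 5.65, 6.69 and 6.97 FPKM in the combined libraries, at 0.898, 0.393 and 0.835 FPKM with IFN-gamma, at 2.54 and 4.60 FPKM with Pam3CSK4, and at 0.0610, 0.0290 and 0.0128 FPKM in Control, where the 3 libraries held 7 counts in all. The groups did not overlap, in the order combined, Pam3CSK4, IFN-gamma and Control, so the single stimuli stood in the reverse order of that for Ly6i, a difference that was not tested. Pam3CSK4 gave a log2 change of 6.66 ± 0.55 against Control (edgeR adjusted p = 1.91e-05). Ly6c2 passed the filter only through libraries given Pam3CSK4, and without the filter on low values this change was 6.74 (edgeR adjusted p = 7.82e-06). As a ratio of counts scaled by library totals the change with Pam3CSK4 was 106-fold (95% counting interval 51.1 to 265, covering counting error only). IFN-gamma gave a change of 4.44 ± 0.53 (edgeR adjusted p = 0.000184), or 21.0-fold by counts (95% counting interval 9.95 to 53.2). The size of these changes rested on few Control counts, 4 of the 7 in replicate 1. Without Control replicate 1 the log2 changes against Control were 8.31 with both stimuli, 5.13 with IFN-gamma and 7.35 with Pam3CSK4. With each library left out in turn they ranged over 7.16 to 8.31, 3.98 to 5.13 and 6.15 to 7.35 in the same order, and every such call was kept. Without the 3 libraries that held mural and fibroblast transcripts the change with IFN-gamma was 3.77 (edgeR adjusted p = 0.00396).

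With both stimuli Ly6c2 was above IFN-gamma alone by 3.18 ± 0.40 (9.05-fold, edgeR adjusted p = 0.000291), and above Control by 7.62 ± 0.54 (edgeR adjusted p = 4.22e-06). Without the low-value filter Ly6c2 was above these groups by 3.21 and 7.70, in that order (edgeR adjusted p = 0.000218 and 1.46e-06). Its step above Pam3CSK4 alone, 0.95 ± 0.41, did not pass (edgeR adjusted p = 0.220) but passed when only these groups were fitted (0.96, adjusted p = 0.0478). It did not pass without the low-value filter alone (0.96, edgeR adjusted p = 0.371) or without the 3 libraries that held mural and fibroblast transcripts alone (0.91, edgeR adjusted p = 0.101). It passed without both, an alternative added after seeing the data (0.92, edgeR adjusted p = 0.000475). Adding the Ly6c1 counts to those of Ly6c2, so that no read could be split between them, gave changes of 5.54 with Pam3CSK4, 3.46 with IFN-gamma and 6.51 with both against Control (edgeR adjusted p = 4.70e-05, 0.000594 and 1.04e-05).

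Ly6C is best known from blood monocytes, so their markers were read in the same libraries. Among 12 monocyte and granulocyte markers, Ccr2, Plac8, Chil3 and S100a9 had group means of at most 0.25 FPKM in every group, and Mpo and Elane had no counts. Of the 4 that were tested, Ms4a4c and the cathelicidin gene Camp rose with Pam3CSK4 against Control (log2 change 4.73 and 5.54, edgeR adjusted p = 1.24e-05 and 7.81e-05), and S100a8 and F13a1 did not pass. The summed level of the list was 18.7 to 24.3 FPKM in the combined libraries, 6.70 to 12.6 FPKM with IFN-gamma, 17.4 to 22.7 FPKM with Pam3CSK4 and 10.3 to 19.3 FPKM in Control. Of the 15 microglial markers 12 fell and 1 rose with Pam3CSK4 against Control, in the same libraries. Of all tested genes, 21.4% fell and 20.0% rose there. The part of these marker shifts in the Ly6 changes was not tested.

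Ly6c1, the Ly6C gene best known from endothelium, stayed near the detection limit. It stood at 0.467, 0.403 and 0.466 FPKM in the combined libraries (88 counts in all), at 0.293, 0.0162 and 0.121 FPKM with IFN-gamma (23 counts), at 0.149 and 0.254 FPKM with Pam3CSK4 (22 counts), and at 0.0202, 0 and 0.153 FPKM in Control (10 counts). The combined libraries lay above all others and the remaining groups overlapped. In a fit without the low-value filter its change in the combined group against Control was 3.13 ± 1.05 (edgeR adjusted p = 0.0549, where 22.7% of 22703 genes were called). It was 1.47 ± 1.04 with IFN-gamma (adjusted p = 0.416, 17.8% called) and 1.88 ± 1.12 with Pam3CSK4 (adjusted p = 0.304, 18.5% called). With edgeR's own expression filter the change in the combined group passed (3.06, adjusted p = 0.0482).

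The libraries that held the most Ly6c1 within Control and IFN-gamma were those with mural and fibroblast transcripts. Control replicate 3 held 9 of the 10 Control counts and IFN-gamma replicate 1 held 16 of 23. Summed endothelial markers stood at 6.13 FPKM in combined replicate 3, at 27.3 FPKM in IFN-gamma replicate 1 and at 40.2 FPKM in Control replicate 3, against 3.49 to 30.3 FPKM in the other 8 libraries, so that Control replicate 3 alone lay above those 8. Their part in the Ly6c1 values was not tested. With the 3 libraries left out and no low-value filter, an alternative added after seeing the data, Ly6c1 passed in 3 comparisons. For the combined group against Control the adjusted p of edgeR was 1.87e-06 (15.7% of genes called higher), with 58 counts against 1, a ratio of 44.2 (95% counting interval 7.62 to 1775). For Pam3CSK4 against Control it was 0.00101 (14.9% called higher), with 22 counts against 1, a ratio of 20.1 (3.24 to 828). For the combined group against IFN-gamma it was 0.000875 (11.8% called higher), with 58 counts against 7, a ratio of 6.91 (3.15 to 18.0).

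Where Pam3CSK4 was given, Ly6c1 held a similar fraction of the summed Ly6c1 and Ly6c2 counts in each library. That fraction was 5.87, 4.35 and 4.81% in the combined libraries and 4.25 and 4.00% in the Pam3CSK4 libraries. It was 19.8, 3.03 and 9.84% with IFN-gamma and 20.0, 0 and 90.0% in Control, where the totals were 2 to 10 counts. The part of shared reads in these fractions was not tested.

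Whether the effect of Pam3CSK4 depended on IFN-gamma was tested as an interaction: the log2 difference between combined and IFN-gamma libraries, less that between Pam3CSK4 and Control libraries. It was negative and passed for Ly6c2 (-3.48 ± 0.67, edgeR adjusted p = 0.00916) and Ly6i (-2.78 ± 0.36, edgeR adjusted p = 0.00161), where 16.0% of tested genes were called (8.01% lower). The combined levels of Ly6c2 and Ly6i were thus 11.2-fold and 6.89-fold below the product of the separate fold changes. Both calls were kept in every alternative fit, with estimates of -4.17 to -2.86 for Ly6c2 and -3.00 to -2.53 for Ly6i where that gene was fitted. With the Ly6c1 and Ly6c2 counts summed, the interaction was -2.49 (edgeR adjusted p = 0.0319). In the combined group IFN-gamma followed Pam3CSK4, and the labels do not give the harvest times. The interaction therefore cannot tell the presence of IFN-gamma from the order of the stimuli or the time since Pam3CSK4.

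The interaction of Ly6a, 0.27 ± 0.34, and that of Ly6e, -0.38 ± 0.32, missed the threshold (adjusted p by edgeR 0.615 and 0.451). For Ly6a the Pam3CSK4 effect was -3.25 ± 0.23 with IFN-gamma and -3.52 ± 0.30 without it. For Ly6e it was -1.22 ± 0.22 with IFN-gamma and -0.84 ± 0.25 without it. The standard errors leave room for differences in either direction, and the estimates lay between -0.04 and 0.49 for Ly6a and between -0.54 and -0.14 for Ly6e over the alternatives.

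**Figure D2:**
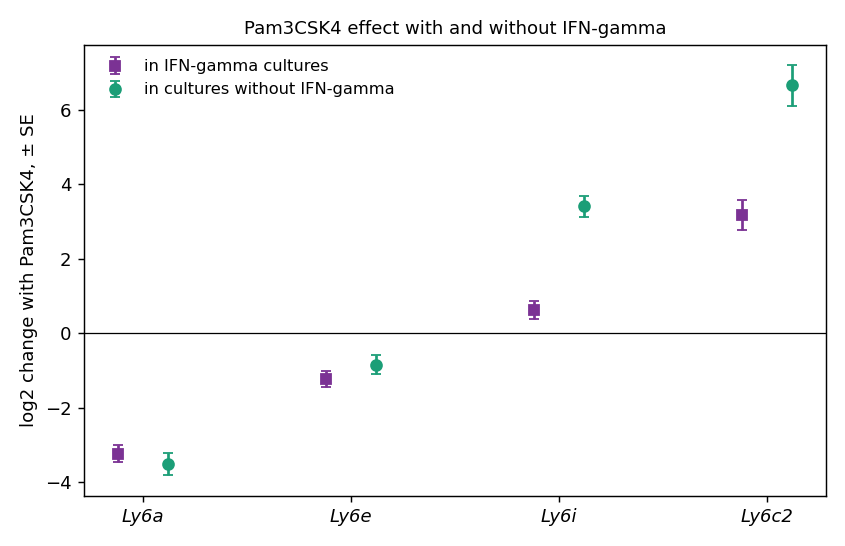
Log2 change with Pam3CSK4 ± SE (vertical axis) for 4 Ly6 genes, as squares with IFN-gamma (combined group against IFN-gamma) and as circles without it (Pam3CSK4 against Control). The squares and circles lie close for Ly6a (-3.25 and -3.52) and Ly6e (-1.22 and -0.84), and apart for Ly6i (0.63 and 3.41) and Ly6c2 (3.18 and 6.66).

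**Figure D3:**
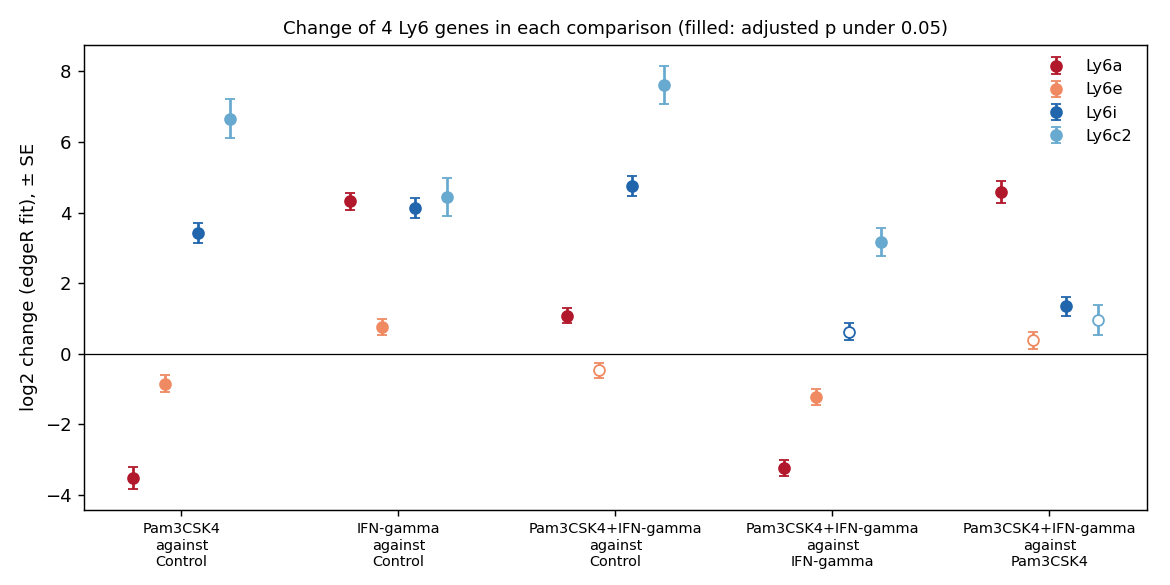
Log2 change ± SE from the edgeR fit (vertical axis) of Ly6a, Ly6e, Ly6i and Ly6c2 in 5 comparisons, with filled points where the adjusted p was under 0.05. Ly6a changed by 4.32 with IFN-gamma and by -3.52 with Pam3CSK4, while Ly6i and Ly6c2 were above 0 in all 5 comparisons.

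The make-up of the Ly6 transcripts therefore differed between the groups. The summed level of the 5 genes was 125 ± 9.07 FPKM in the combined group (SD, n = 3), 245 ± 16.0 FPKM with IFN-gamma (SD, n = 3), 71.9 ± 9.64 FPKM with Pam3CSK4 (SD, n = 2) and 84.1 ± 22.2 FPKM in Control (SD, n = 3). In Control, Ly6e made up 89.7 to 94.0% of that sum. With IFN-gamma, Ly6a made up 31.3 to 39.7% and Ly6e 46.4 to 55.4%. With Pam3CSK4, Ly6a was at 0.474 to 0.657% and Ly6i at 30.6 to 34.4%. In the combined group Ly6i (40.3 to 49.4%) and Ly6e (38.4 to 47.1%) held similar fractions, with Ly6a at 6.71 to 7.67% and Ly6c2 at 4.80 to 5.53%.

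Over all libraries, the fraction held by Ly6i averaged 39.5% in the 5 libraries given Pam3CSK4 and 8.52% in the 6 not given it, and that of Ly6c2 5.05% and 0.161% (two-sided exact permutation tests, p = 0.00433 each, the smallest these groups allow; adjusted p = 0.0144 over 10 tests). The fraction of Ly6c1 was likewise higher with Pam3CSK4 (0.326% and 0.0748%, exact p = 0.00866, adjusted p = 0.0173). The fraction of Ly6a averaged 20.9% in the 6 libraries given IFN-gamma and 3.61% in the 5 not given it (exact p = 0.00866, adjusted p = 0.0173), and that of Ly6e 46.8% and 79.7% (exact p = 0.00433, adjusted p = 0.0144). The other 5 tests did not pass. They were Ly6a (4.58% and 20.1%, exact permutation adjusted p = 0.137) and Ly6e (50.5% and 71.1%, adjusted p = 0.179) for Pam3CSK4 given and not given. For IFN-gamma given and not given they were Ly6i (29.3% and 14.6%, exact permutation adjusted p = 0.227), Ly6c2 (2.72% and 1.98%, adjusted p = 0.625) and Ly6c1 (0.207% and 0.166%, adjusted p = 0.688). Each test averages over the other stimulus, and fractions of 1 sum are tied to each other, so the tests are not separate results. A lower fraction need not mean a lower level. Ly6e averaged 124 FPKM with IFN-gamma alone and 53.3 FPKM in the combined group, against 77.3 FPKM in Control and 44.2 FPKM with Pam3CSK4. When the 3 libraries holding mural and fibroblast transcripts were left out, the 5 differences that passed kept their direction but had an exact permutation adjusted p of 0.0571 each, the smallest p of 4 libraries against 4 being 0.0286 before adjustment.

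**Figure D4:**
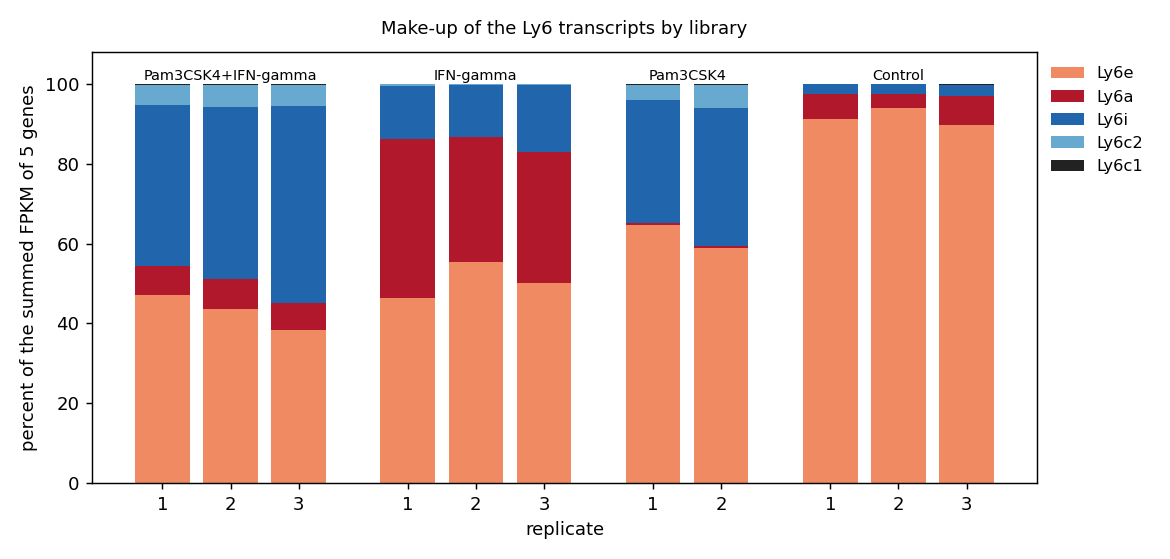
Percent of the summed FPKM of the 5 Ly6 genes held by each (vertical axis, stacked bars), with a bar per library and the groups side by side. Ly6e fills 89.7 to 94.0% of the Control bars, Ly6a has its largest fraction with IFN-gamma alone (31.3 to 39.7%), and Ly6i fills 30.6 to 49.4% wherever Pam3CSK4 was given.

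Most other members of the Ly6 and uPAR protein family were at or near 0 counts in these cultures. Of 35 relatives listed, 31 were in the table, 12 of them without a count in any library, and 2 were tested. Plaur, the urokinase receptor that steers pericellular proteolysis, averaged 15.2 ± 0.729 FPKM in the combined group (SD, n = 3), 27.1 ± 2.79 FPKM with IFN-gamma (SD, n = 3), 15.8 ± 0.542 FPKM with Pam3CSK4 (SD, n = 2) and 18.0 ± 2.96 FPKM in Control (SD, n = 3). It rose with IFN-gamma against Control (log2 change 0.70 ± 0.10, edgeR adjusted p = 0.000424) and was lower in the combined group than with IFN-gamma alone (-0.84 ± 0.10, edgeR adjusted p = 0.000168). It did not pass with Pam3CSK4 against Control (-0.19 ± 0.11, adjusted p = 0.181), and its interaction was -0.65 ± 0.14 (edgeR adjusted p = 0.0161). Cd59a, an inhibitor of the complement membrane attack complex, averaged 0.862 FPKM in the combined group, 0.557 FPKM with IFN-gamma, 1.73 FPKM with Pam3CSK4 and 1.39 FPKM in Control, and passed in no comparison.

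The genes around the members were also near silence. Between the members or within 200 kb of the outermost ones lay 26 other genes of the table, 15 of them without a count in any library. None reached the filter, and none had a group mean of 1 FPKM. They include Ly6g, the granulocyte marker gene, with 2 counts over all libraries.

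Ly6 proteins need the GPI anchor machinery, and the genes of that machinery were read beside them. Of 27 listed genes 24 were tested. With Pam3CSK4 against Control 3 rose and 8 fell (median log2 change -0.25, against -0.04 over all tested genes). With IFN-gamma against Control 7 rose and 3 fell (median 0.02, against -0.07 over all tested genes). In the combined group against IFN-gamma 1 rose and 6 fell (median -0.09, against -0.02). Of all tested genes, 41.4%, 41.6% and 34.2% were called in these comparisons, in that order. The list was thus called about as often as tested genes in general. The change in Pgap2, which remodels the lipid of the anchor, was 1.86 ± 0.09 with Pam3CSK4, 0.87 ± 0.08 with IFN-gamma and 1.53 ± 0.08 with both against Control (edgeR adjusted p = 9.64e-07, 3.71e-05 and 7.58e-07), and its interaction was -1.19 ± 0.12 (adjusted p = 0.000434). Among subunits of the transamidase that attaches the anchor, Pigu rose with Pam3CSK4 (0.69 ± 0.10, edgeR adjusted p = 0.000443) and with both stimuli (0.62 ± 0.09, adjusted p = 0.000317), and Pigs fell with both stimuli against Control (-0.50 ± 0.12, adjusted p = 0.00633).

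Of 17 listed interferon ligands, receptors and transducers, 12 were tested. Ifna1 and Ifna2 had no counts, and Ifnb1, the beta interferon gene, had 50 counts in all, with means of 0.824 FPKM in the combined group, 0.157 FPKM with IFN-gamma, 0.287 FPKM with Pam3CSK4 and 0 in Control. None of the ligands was tested. With Pam3CSK4 against Control 6 of the 12 rose and 1 fell (median log2 change 0.38, against -0.04 over all tested genes), among them the feedback inhibitor gene Socs1 (3.62 ± 0.17, edgeR adjusted p = 9.56e-07) and the kinase gene Jak2 (2.61 ± 0.11, adjusted p = 4.98e-07). The receptor gene Ifngr1 fell (-1.60 ± 0.18, edgeR adjusted p = 0.000125). Of all tested genes, 41.4% were called in this comparison and 41.6% in that of IFN-gamma with Control. With IFN-gamma against Control 5 rose and 2 fell (median 0.26, against -0.07), led by Socs1 (8.47 ± 0.19) and the transcription factor gene Irf1 (4.55 ± 0.16; edgeR adjusted p = 5.31e-09 and 1.21e-07). In the combined group against IFN-gamma, Ifngr1 (-0.94 ± 0.15) and Irf1 (-0.74 ± 0.14) were lower and Jak2 (1.90 ± 0.10) higher (edgeR adjusted p = 0.00138, 0.00325 and 1.86e-06). The interaction passed as negative for 4 of the 12 and as positive for 1, where 16.0% of all tested genes were called. Among the negative ones were Socs1 (-4.28 ± 0.22), Stat2 (-1.13 ± 0.22) and Jak2 (-0.72 ± 0.15; edgeR adjusted p = 1.32e-05, 0.0104 and 0.0126).

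The genes whose profiles were most like each member's were found by Pearson's r of log2(CPM + 1) over the 11 libraries among 10050 tested genes that are neither members nor, by symbol, predicted genes or pseudogenes. These coefficients describe likeness only, since the libraries share their group differences and between 154 and 335 genes reached 0.9 with each member. Nearest to Ly6a were AB124611, the costimulatory ligand gene Cd86, the TNF receptor gene Tnfrsf1a, the transcription factor gene Klf6 and the membrane raft gene Flot1 (0.986 down to 0.980). Cd86 averaged 23.1 FPKM in the combined group, 79.4 FPKM with IFN-gamma, 7.22 FPKM with Pam3CSK4 and 19.9 FPKM in Control. Among the genes nearest to Ly6e were AI467606, Nudt9, Nrros and Pld4 (0.989 down to 0.981).

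Nearest to Ly6i were Slfn2, the complement gene Cfb, the class I gene H2-T22, the glutaredoxin gene Glrx and Nmi (0.997 down to 0.991). Slfn2 averaged 317 FPKM in the combined group, 236 FPKM with IFN-gamma, 194 FPKM with Pam3CSK4 and 41.5 FPKM in Control. Nearest to Ly6c2 were the mitochondrial superoxide dismutase gene Sod2, the receptor gene Pilrb1, Gpr31b, the GTPase gene Rab20 and N4bp1 (0.988 down to 0.983). Sod2 averaged 351 FPKM in the combined group, 68.9 FPKM with IFN-gamma, 229 FPKM with Pam3CSK4 and 18.7 FPKM in Control. Among the members themselves, the coefficient over 11 libraries was 0.84 for Ly6a with Ly6e and 0.84 for Ly6c2 with Ly6i, and between -0.47 and 0.35 for the other 4 tested pairs.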

How the data were processed

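Total RNA of cultured microglia was sequenced, 1 library per sample. Per the file headers, the deposited table gives a whole-number count and an FPKM value per gene and library. The submitters' processing notes list the mm10 build and the programs Cuffdiff, Cufflinks (2.1.1) and TopHat2 (2.1.0) without saying what each did. Which counter, annotation and strand setting made the table is not stated in the labels. Columns were matched to samples by the sample number in the labels, and 0 per-sample columns were left out. Replicate pairs differed beyond counting noise (chi-square per gene 15.4 to 157).

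Counts were fitted in R 4.3.3 with edgeR 4.0.16 (quasi-likelihood, TMM scaling, 4 group means, two-sided), as tested on simulated data. The SE is the absolute log2 change divided by the root of the F statistic. P-values measure the spread between these samples, which may be technical. Alternatives were RLE scaling, other filters, DESeq2 1.42.0, the replicate number as a block, only the groups compared, libraries left out and summed counts of similar members. Counting intervals are exact at 95% and cover counting error only. Permutation tests used scipy 1.17.1. Shared stretches and overlaps came from GENCODE M21, whose IDs and coordinates for the 5 genes equal the table's.

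The members, lists and 3 libraries set apart were chosen with earlier results of these data known. Named genes are the members in every comparison, relatives and neighbours with a group mean of at least 1 FPKM, up to 4 changed genes per other list and comparison, and the 5 genes most like each member. Of these, those that the text leaves out are summarised by counts, and some are not reported here.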

Additional observations from a re-analysis of the deposited data

Results flagged for a closer look

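The Pam3CSK4 effect differed between cultures with and without IFN-gamma for 2 Ly6 genes. The presence of IFN-gamma, the order of the stimuli and the time since Pam3CSK4 cannot be told apart here. The interaction was -2.78 for Ly6i and -3.48 for Ly6c2 on the log2 scale (edgeR adjusted p = 0.00161 and 0.00916). The Pam3CSK4 effect on Ly6i was 0.63 with IFN-gamma and 3.41 without it, and that on Ly6c2 was 3.18 and 6.66. With IFN-gamma the Pam3CSK4 effect did not pass for Ly6i (edgeR adjusted p = 0.0655) and passed for Ly6c2 (edgeR adjusted p = 0.000291). Groups of 2 or 3 libraries were too small for a test of single outlying samples.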

How the results depend on the processing

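Of the changes of single members refitted under the alternatives, 465 kept their direction and side of the threshold, 18 newly passed, 10 no longer passed and 1 turned its sign. The last was the Ly6a interaction, which was not called. It was -0.0375 to 0.447 with single libraries left out, negative only without Control replicate 1 (edgeR adjusted p = 0.970). The number of members called in the combined group against Pam3CSK4 was 2 of 4 (9.10% of all genes called), but 4 when only these groups were fitted (21.2%) and 1 to 3 with single libraries left out (3.70% to 18.3%). Without the low-value filter and the 3 libraries with mural and fibroblast transcripts, an alternative added after seeing the data, it was 4 of 5 there (11.6%), and 5 of 5 in the combined group against Control (30.3%) and against IFN-gamma (22.7%), where it had been 3 of 4 each (47.6% and 34.2%). Without those 3 libraries the differences in the fraction of Ly6 transcripts, in percentage points, were 17.1 for Ly6a and -28.2 for Ly6e with IFN-gamma, and 28.3 for Ly6i, 4.87 for Ly6c2 and 0.302 for Ly6c1 with Pam3CSK4, and no longer passed (exact permutation adjusted p = 0.0571 each). With 4 libraries against 4, the smallest p that this exact permutation test can give is 0.0286 before adjustment. The Ly6c1 difference with IFN-gamma, which did not pass, lay between -0.000684 and 0.0810 with single libraries left out.

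Over all genes, the number called moved by over 1.5 times under 3 of 19 alternatives for Pam3CSK4 against Control (4532; 2642 to 6812), 9 of 19 for the combined group against Pam3CSK4 (995; 405 to 2644) and 8 of 18 for the interaction (1752; 664 to 3637), and under none in the other comparisons. With the replicate number as a block no member's call changed, and the Ly6i interaction was -2.81. Between replicates that share a number, deviations from group means correlated at -0.72 to 0.73. These correlations were over 0.1 in 7 of 15 pairs, against 17 of 30 pairs with different numbers. Deviations within groups of 2 or 3 libraries are tied to each other, so this check cannot show whether the numbers pair the samples. The sample numbers in the labels also skip a value between the Pam3CSK4 replicates, so replicate 2 there may not match replicate 2 elsewhere. No label ties the numbers to an animal, batch or day, and the main fit did not use them. The main limits are the 2 Pam3CSK4 libraries, the 7 Ly6c2 and 10 Ly6c1 counts in Control, and the reads these genes may share.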

Other observations

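A Ly6 relative below the filter, Ly6g6e in the major histocompatibility region, was singled out after its values were seen. It had 6, 2 and 5 counts in the combined libraries, 41, 40 and 33 with IFN-gamma, 0 and 0 with Pam3CSK4 and 14, 6 and 3 in Control. Its order of groups by mean FPKM, IFN-gamma first (0.852), then Control (0.185), the combined group (0.0817) and Pam3CSK4 (0), was that of Ly6e. Ly6g6e overlaps Ly6g6d in the table's coordinates, so their counts may not be separate. Lynx1, a relative that modulates nicotinic receptors in neurons, had 27 counts in combined replicate 3, 65 in IFN-gamma replicate 1 and 109 in Control replicate 3, the libraries with mural and fibroblast transcripts, and at most 4 in any other library.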
